A study of Mus musculus with 13 samples.

Results

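The 911 peaks described here were open in the endothelial (Endo) and in the immune nuclei of mouse kidney and less often in each of the other named clusters. Nuclei of whole kidneys were profiled by snATAC-seq, which uses Tn5 transposase to tag open chromatin in single nuclei. There were 2 samples of the P0 stage, a single P21 sample and 2 of the P56 stage. The labels name the first stage P0 while the extraction protocol gives 1-day-old mice, and the others are kidneys from mice aged 3 and 8 weeks, perfused with saline before collection. Neither a strain nor a genetic change or treatment is given for the mice of these samples (the methods name wild type C57BL/6 mice for the single-cell RNA samples of the study), the labels do not say how many animals each sample holds, and p-values therefore measure only the spread between these samples. The P21 and P56 samples form the adult group, as in the study. For each cluster of the deposited annotation, the nuclei in which a peak was open were counted over all 5 samples and divided by the cluster's total of such open calls, which gives CPM (open calls in the peak per 1000000 open calls). A peak was kept where CPM was at least 8 in both Endo and immune nuclei and the lower of these values was at least 2 times the highest value among the other 11 named clusters. That left 911 of 300755 peaks, or 0.303%, and 15657 peaks reached the CPM minimum in both, of which 14746 fell below the ratio. Among the 911, the lower of both levels was 2.66 to 6.44 times the highest other value in the middle 50% of peaks (median 3.84). The 2 clusters without a cell type name, NP_LOH and PT_out, took no part in the rule, and with them 881 peaks passed, NP_LOH being above the lower level at 4 of the 911. The Endo and immune levels chose the peaks and are given as a description, without a test.

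Endothelial cells and blood cells have a common developmental history, since the first blood stem cells bud from the endothelium of the embryo. Both lineages use transcription factors of the ETS family, which bind a GGAA core: ERG, FLI1 and ETS1 in endothelium, and PU.1 in macrophages and other myeloid cells. Kidney holds a dense capillary bed, including the fenestrated glomerular tuft, and resident macrophages that lie against those vessels, whereas the tubule epithelium derives from other embryonic tissue and relies on factors such as HNF1 and HNF4.

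Sequences of 8 of the 911 peaks are shown, all but the Zfp710 peak because they carry a result given later. They were read from GRCm38 on the plus strand over the central 300 bp of the peak, and capitals mark matches, on either strand, to the ETS motif in its forms GGAAGT (which many ETS factors bind), CGGAAG (a variant with cytosine in front) and AGGAAG (the variant with adenine in front), the RUNX motif TGTGGT and the SOX motif AACAAT. The Arhgap18 intron is one of the most open peaks with a RUNX match, the Zfp710 intron, picked after its sequence was seen, holds 5 separate ETS matches, and the peak between genes nearest Anapc16 is the only one called between P0 and adult in immune nuclei. The peak nearest Slc38a9 leaned most to Endo and the Mob3a intron most to immune nuclei. The Efl1 intron and the peak nearest Ly6e were among the largest losses and gains with age in Endo, and the Inpp5d intron is one of 155 peaks without an ETS match.
Arhgap18, chr10:26799619-26799918, intron of Arhgap18: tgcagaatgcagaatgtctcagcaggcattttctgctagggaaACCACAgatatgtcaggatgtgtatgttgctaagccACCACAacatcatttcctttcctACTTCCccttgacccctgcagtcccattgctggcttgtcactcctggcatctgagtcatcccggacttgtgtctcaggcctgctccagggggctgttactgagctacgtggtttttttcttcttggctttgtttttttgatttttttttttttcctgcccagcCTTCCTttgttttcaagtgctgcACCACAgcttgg
Zfp710, chr7:80044359-80044658, intron of Zfp710: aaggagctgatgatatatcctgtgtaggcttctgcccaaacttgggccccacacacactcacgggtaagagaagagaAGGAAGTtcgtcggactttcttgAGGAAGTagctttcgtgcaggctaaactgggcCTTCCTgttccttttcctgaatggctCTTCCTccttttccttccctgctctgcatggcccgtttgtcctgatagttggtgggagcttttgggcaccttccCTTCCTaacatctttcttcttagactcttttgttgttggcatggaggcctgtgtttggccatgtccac
Anapc16, chr10:59974621-59974920, between genes, nearest Anapc16: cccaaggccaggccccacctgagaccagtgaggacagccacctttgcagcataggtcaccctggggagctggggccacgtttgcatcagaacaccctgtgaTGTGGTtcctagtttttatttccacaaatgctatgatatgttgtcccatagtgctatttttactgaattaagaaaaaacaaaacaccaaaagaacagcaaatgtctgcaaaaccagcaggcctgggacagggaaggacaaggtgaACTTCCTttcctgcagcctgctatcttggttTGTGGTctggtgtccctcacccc
Slc38a9, chr13:112753723-112754022, between genes, nearest Slc38a9: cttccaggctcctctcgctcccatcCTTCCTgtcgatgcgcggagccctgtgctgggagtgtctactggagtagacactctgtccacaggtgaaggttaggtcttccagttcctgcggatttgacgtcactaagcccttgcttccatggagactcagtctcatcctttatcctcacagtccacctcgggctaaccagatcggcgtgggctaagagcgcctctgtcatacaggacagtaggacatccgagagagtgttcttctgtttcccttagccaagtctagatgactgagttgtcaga
Mob3a, chr10:80695370-80695669, intron of Mob3a: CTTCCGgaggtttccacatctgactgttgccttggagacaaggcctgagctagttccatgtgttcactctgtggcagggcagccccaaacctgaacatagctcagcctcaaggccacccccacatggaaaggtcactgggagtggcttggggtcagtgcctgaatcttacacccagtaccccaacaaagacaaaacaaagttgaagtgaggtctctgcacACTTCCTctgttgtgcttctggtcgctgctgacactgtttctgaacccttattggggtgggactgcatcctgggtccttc
Efl1, chr7:82691343-82691642, intron of Efl1: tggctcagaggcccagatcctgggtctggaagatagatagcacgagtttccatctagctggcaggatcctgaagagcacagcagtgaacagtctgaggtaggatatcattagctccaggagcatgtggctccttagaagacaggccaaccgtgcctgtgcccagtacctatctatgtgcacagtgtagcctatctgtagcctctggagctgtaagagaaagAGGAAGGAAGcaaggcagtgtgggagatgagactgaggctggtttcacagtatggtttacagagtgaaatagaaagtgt
Ly6e, chr15:74960922-74961221, between genes, nearest Ly6e: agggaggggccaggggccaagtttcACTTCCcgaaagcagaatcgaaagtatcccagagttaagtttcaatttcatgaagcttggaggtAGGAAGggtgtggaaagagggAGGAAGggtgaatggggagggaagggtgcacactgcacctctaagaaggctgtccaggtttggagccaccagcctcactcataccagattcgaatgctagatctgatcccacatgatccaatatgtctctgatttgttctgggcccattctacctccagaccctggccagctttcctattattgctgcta
Inpp5d, chr1:87640304-87640603, intron of Inpp5d: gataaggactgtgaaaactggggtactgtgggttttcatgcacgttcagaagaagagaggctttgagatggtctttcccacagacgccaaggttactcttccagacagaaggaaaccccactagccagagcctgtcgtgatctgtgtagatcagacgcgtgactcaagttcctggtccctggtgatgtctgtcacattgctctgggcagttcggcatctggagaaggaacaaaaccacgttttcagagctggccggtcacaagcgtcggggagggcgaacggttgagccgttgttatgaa

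Of the 908 peaks on the numbered chromosomes or X, 753 (82.9%) held at least 1 of the 3 ETS motifs in the central 300 bp. The same search found a match in 73.0% of 6853 peaks open mainly in Endo (Endo CPM at least 8 and at least 2 times every other named cluster), in 70.9% of 6465 peaks open mainly in immune nuclei by the same rule, and in 48.3% of all 300693 peaks. AGGAAG was found in 75.3% of the shared peaks, 65.2% of the Endo-only, 58.5% of the immune-only and 38.1% of all peaks. GGAAGT, the form that ETS factors bind most widely, stood in 50.6%, 33.7%, 43.8% and 21.3% of these sets in that order. The form favoured by PU.1, GAGGAAG, which contains AGGAAG and so overlaps it, was found in 33.6%, 22.2%, 29.0% and 12.6%. CGGAAG, the rarest of the 3, was found in 14.4%, 9.98%, 7.97% and 6.31%. Each ETS form was thus more frequent among the shared peaks than in any of the 3 other sets. A total of 39.1% of the shared peaks held AGGAAG at 2 or more places, against 29.1% of the Endo-only, 21.8% of the immune-only and 10.1% of all peaks. ETS matches, with overlapping forms counted separately, were not centred on the peaks. In the 150 bp at lower coordinates than the centre there were 9.24 per kb, against 5.21 per kb in the 150 bp at higher coordinates, and in bins of 60 bp they were densest 120 bp below the centre (10.7 per kb). The other sets leaned the same way, with 6.74 and 3.92 per kb in the Endo-only, 6.75 and 3.41 in the immune-only and 3.03 and 2.54 in all peaks. The authors called peaks with reads shifted and extended, and the part of that setting was not tested. With the window moved by 100 bp to lower coordinates, a choice made after seeing the data, the share with an ETS motif was 85.4% in the shared, 79.2% in the Endo-only, 80.2% in the immune-only and 50.3% in all peaks, and moved the other way it was 69.4%, 59.8%, 53.95% and 45.0%. The shared peaks had the highest share in each window, by a smaller margin in the first.

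The RUNX and SOX motifs, which set the Endo-only and immune-only peaks apart, took intermediate shares. TGTGGT, bound by RUNX factors of blood cells, was found in 22.8% of the shared peaks, between 17.7% of the Endo-only and 30.9% of the immune-only peaks, with 20.7% of all peaks. AACAAT, bound by SOX factors such as SOX17 and SOX18 of endothelium, was found in 14.6%, between 21.9% and 11.1%, and close to the 14.7% of all peaks. Motifs of epithelial factors were scarce, with the HNF1 motif GTTAAT in 5.5% against 11.8% of all peaks and the HNF4 motif CAAAGTC in 3.7% against 5.8%. The Endo-only and immune-only peaks had 7.19% and 6.88% for HNF1 and 4.98% and 5.10% for HNF4, also below all peaks. The GATA motif AGATAA (12.996% against 15.3%) and the TEAD motif GGAATG (12.8% against 18.8%) were also less frequent than in all peaks, and the AP-1 motif TGANTCA (14.4% against 10.5%) and the IRF motif, 2 GAAA words with 2 bases between (7.5% against 4.3%), more frequent. In the Endo-only and immune-only peaks, GATA had 16.3% and 12.3% and TEAD 16.9% and 14.0%. AP-1 had 12.3% and 12.7% there, and IRF 5.01% and 6.03%. The shared peaks had a median GC content of 50.7% in this window, against 48.7%, 48.0% and 46.7% in the Endo-only, immune-only and all peaks, and a median width of 640 bp against 609, 358 and 414 bp. The part of GC content in the motif shares was not tested.

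**Figure D1:**
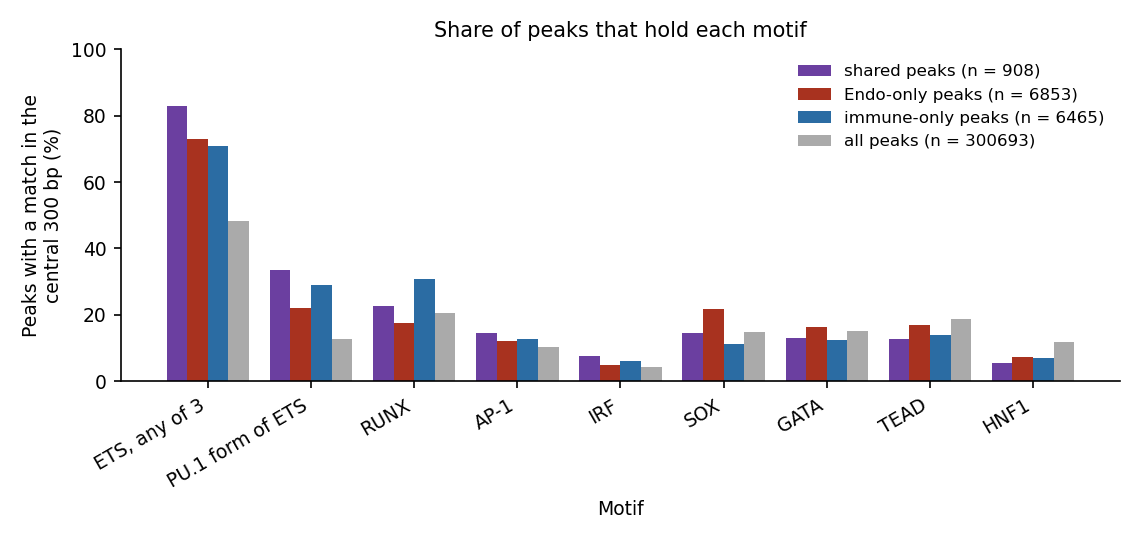
Bars give the percent of peaks with a motif match on either strand in the central 300 bp, for the shared peaks, Endo-only peaks, immune-only peaks and all peaks (n in the key). ETS matches reach 82.9% in the shared peaks and 48.3% in all peaks, whereas RUNX and SOX shares of the shared peaks lie between those of the Endo-only and immune-only peaks.

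The shared peaks lay closer to gene starts than the Endo-only peaks or all peaks. Starts of annotated genes fell within 115 of them (12.6%), against 5.15% of the Endo-only, 7.51% of the immune-only and 7.43% of all peaks, and the median distance to the nearest start was 11086 bp, against 20482, 11754 and 20331.5 bp. Introns held 457 (50.2%) and exons 164 (18.0%), while 200 (22.0%) were distal, 58 (6.37%) lay in the 5 kb before a start, 25 overlapped a 5′-UTR and 7 a 3′-UTR. Among all peaks 46.7% were intronic and 31.6% distal. An exon or intron may belong to a noncoding gene. Each peak was given the protein-coding gene it overlapped (564 peaks) or otherwise that of the nearest start (344), which names a position and not a target, and 3 peaks on unplaced sequence have no gene.

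Before the levels, the nuclei behind them were checked. Over the 5 samples, listed from here on as P0 replicates 1 and 2, P21, and P56 replicates 1 and 2, Endo had 592, 412, 221, 712 and 431 nuclei (2368 in all) and immune 99, 57, 45, 84 and 101 (386 in all). All 12 endothelial markers tested (among them Pecam1, Cdh5, Kdr and Emcn) were most open in Endo and all 14 immune markers (among them C1qa, Ptprc, Csf1r and Spi1) in immune nuclei. The summed level of the endothelial markers, leaving out the shared peaks, was 2340 CPM in Endo and 358 CPM in immune nuclei, and in the other named clusters it ranged from 120 to 482 CPM. Immune markers summed to 1335 CPM in immune nuclei and 360 CPM in Endo, with 291 to 492 CPM elsewhere. Each of these marker sums thus lay, in the other type, within the range of the unrelated clusters. T cell markers (5 with a peak) did not follow this, since they summed to 99.4 CPM in Endo, close to 111.1 CPM in immune nuclei and above the 27.3 to 59.1 CPM elsewhere. Among them Lck, a kinase of the T cell receptor, has a shared peak of its own, which these sums leave out. Over the whole gene, with that peak included, Lck had 99.1 CPM in Endo and 51.9 CPM in immune nuclei. Cd3d, a chain of that receptor, had 3.05 and 50.4 CPM over its gene. Podocyte markers summed to 194.7 CPM in Endo, against 27.0 to 183 CPM in the clusters other than Podo, and Podxl, a surface mucin that endothelium also carries, made up 170.8 CPM of it. The part of these markers in the results was not tested. Immune nuclei of P56 replicate 2 stood apart: their immune markers summed to 984 CPM, against 1444 to 1543 CPM in the other samples, and their proximal tubule markers to 347 CPM, against 123 to 201 CPM. Of 27834 distinct barcodes 477 occurred in more than 1 sample, 5 of them among Endo and immune nuclei.

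Open calls in the 911 peaks made up 1.98% of all open calls of Endo nuclei and 1.93% of those of immune nuclei. In the other 11 named clusters the share ran from 0.0953% in PT to 0.278% in stroma2, and it was 0.148% in NP_LOH and 0.120% in PT_out. Over the 5 samples in the same order, the Endo share was 1.97%, 1.87%, 1.77%, 2.26% and 1.97%, and the immune share 2.37%, 2.26%, 1.80%, 2.25% and 1.27%. All 10 of these values lay above every value of the other clusters, whose highest was 0.538% in stroma1 of P56 replicate 1. A typical Endo nucleus had 72 of the 911 peaks open and a typical immune nucleus 53.5 (medians).

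**Figure D2:**
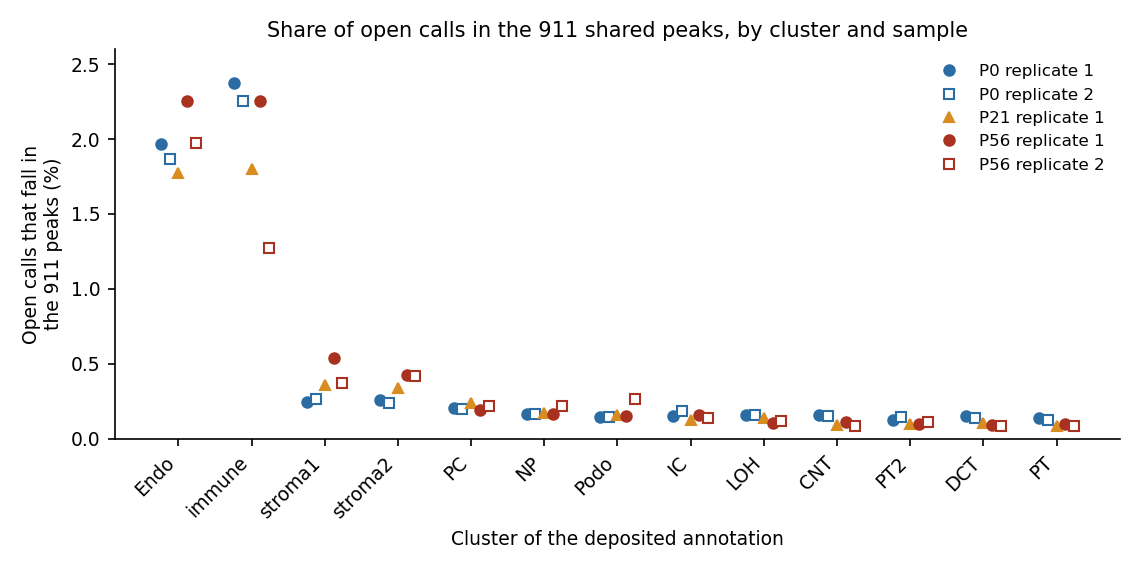
Each point is 1 sample in 1 cluster, and the vertical axis gives the percent of its open calls that fall in the 911 peaks. Endo and immune values lie between 1.27% and 2.37%, and the next clusters, stroma1 and stroma2, reach 0.538%; the low immune point is P56 replicate 2.

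All immune and Endo nuclei were counted in choosing the peaks, so shares in subsets of them are a description. The 180 immune nuclei with no open call at any endothelial marker peak outside the set had 1.94% of their calls in the 911 peaks, and the 206 nuclei with such a call 1.92%. The former were shallower (medians of 2011.5 and 3985 open peaks per nucleus), so that a missing call can also come from depth. In reverse, the 753 Endo nuclei without a call at an immune marker had 2.24% and the other 1615 had 1.93%. Applying the rule with only those 180 immune nuclei kept 838 peaks, of which 722 were among the 911 (79.3% of the 911 and 86.2% of the 838). Endo sums were unchanged and the 180 nuclei were part of the first choice, so this overlap is also a description. The 180 held 8473 of the 26418 immune calls in the 911 peaks, so their levels rest on fewer calls. Leaving out the immune nuclei of P56 replicate 2 gave 1033 peaks, 883 of them shared with the 911.

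Because the rule pooled the samples, it was also run on 4 samples at a time and the chosen peaks were read in the sample left out. In the P0 samples Endo had 1.69% and 1.65% of its calls in the chosen peaks and immune 1.97% and 1.99%, and the highest other cluster had 0.225% and 0.240%. At P21 the values were 1.81%, 1.76% and 0.369%. In the P56 samples Endo had 2.19% and 2.19%, immune 2.12% and 1.29%, and the highest other cluster 0.532% and 0.483%. In every sample left out, both cell types thus stood above all 11 others. The clusters and the peak list had been made from all 5 samples, so the sample left out was not independent of them. Peak by peak, both types exceeded every other cluster at 91.2% and 94.0% of the chosen peaks in the P0 samples, at 57.8% at P21 and at 74.8% and 61.0% in the P56 samples, where 6.84% to 8.55% of the remaining peaks with 8 CPM in both did so. At P21, with 45 immune nuclei and 7.68 CPM for a single call, 230 of the 948 chosen peaks had no immune call.

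**Figure D3:**
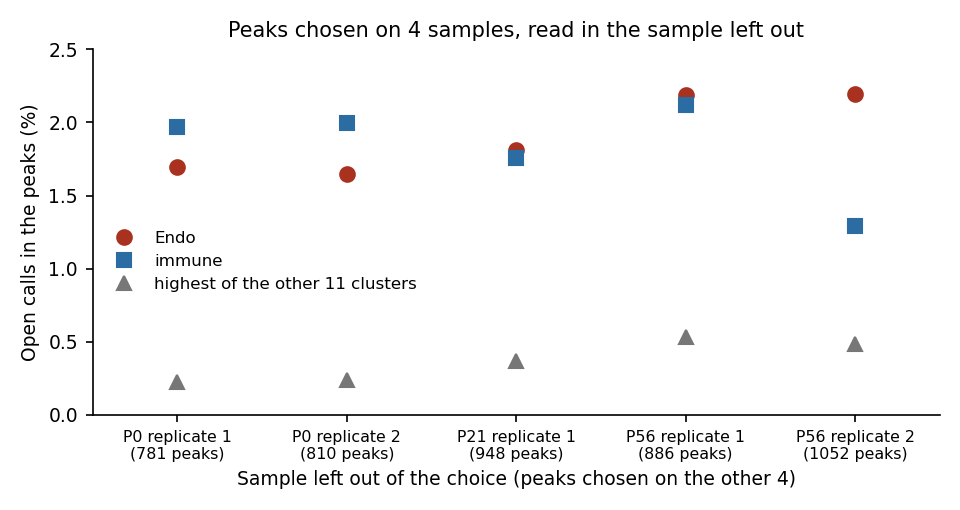
Peaks were chosen on 4 samples and read in the fifth, named on the horizontal axis with the number of peaks chosen. The vertical axis is the percent of open calls in them: Endo and immune lie between 1.29% and 2.19%, and the highest of the other clusters between 0.225% and 0.532%.

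Most of the 911 peaks were about equally open in both cell types. The median level was 17.6 CPM in Endo and 17.5 CPM in immune nuclei, the median ratio of Endo to immune CPM was 1.01, and 683 peaks lay within 2-fold. Stroma followed, with medians of 2.08 and 2.07 CPM in stroma1 and stroma2, and the other 9 clusters had medians of 0.43 to 1.35 CPM. The highest of the other clusters was stroma2 for 256 peaks, stroma1 for 225 and PC, the principal cells of the collecting duct, for 149. Endo led the 11 others in all 5 samples at 687 peaks and immune at 447, and both did at 350. Immune led in at most 2 samples at 31 peaks, and for 88 peaks over 50% of the immune calls came from a single sample. Immune levels rested on 11 to 123 open calls per peak (median 24), and Endo levels on 87 to 885 (median 191).

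**Figure D4:**
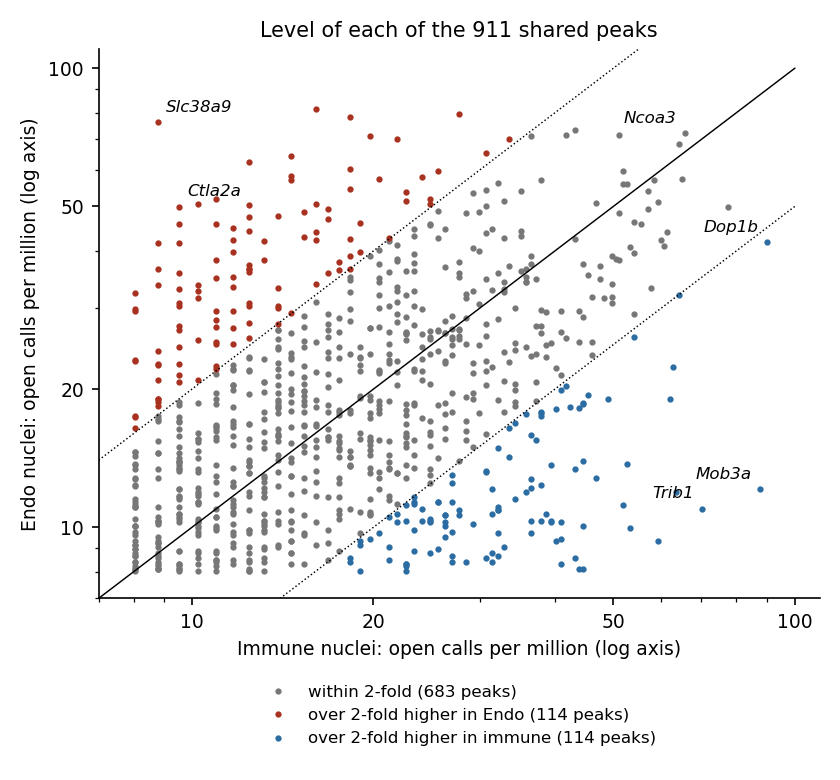
Each point is 1 of the 911 peaks, with immune CPM on the horizontal and Endo CPM on the vertical axis (both log). The solid line marks equal levels and the dotted lines 2-fold differences: 683 peaks lie between them, 114 above and 114 below, and the columns of points at low immune CPM are whole numbers of open calls.

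Ranked by the lower of both levels, the most open was an intronic peak of a noncoding gene nearest Ncoa3, a coactivator of nuclear receptors (chr2:165982454-165983578, 72.3 CPM in Endo, 65.8 in immune and 30.5 in PT2). Its neighbours in rank were the peak nearest Anapc16, a subunit of the anaphase-promoting complex (68.5 and 64.3 CPM), and peaks at Ccdc97, Disc1, Pnrc2, Clic1, Itpkb and Gse1, all between 51.9 and 65.0 CPM in both types. An intron of Pecam1 (chr11:106674537-106675940), the adhesion molecule CD31 of endothelium and leukocytes, had 71.4 CPM in Endo and 51.1 CPM in immune nuclei. A peak over the start of Pxn, the focal adhesion adaptor paxillin, had 49.4 and 57.0 CPM against at most 4.46 CPM elsewhere. Per sample, Pxn had 40.5 and 38.3 CPM at P0 and 65.1, 66.8 and 69.2 CPM in the adult samples in Endo, and 60.3, 41.0, 61.4, 60.2 and 59.4 CPM in the same order in immune nuclei. Adult Endo values lay above the P0 values, and immune values overlapped. The Arhgap18 intron had 48.5 and 51.1 CPM. An exonic peak of Irf2, a repressor of interferon-induced genes, had 42.3 and 59.9 CPM against 4.14 CPM in stroma2.

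In all 24 peaks with the highest level by this ranking, Endo led in all 5 samples, and immune in 5 samples for 19 and in 4 for the others. The remaining genes of these 24 were Tgfb1, Ppp1r18, Sema6b, Vps8, Mef2c, Myh9, Hhex, Cd69, Dop1b, Tomm20, Ube2v1 and Plcl2. Their lower value ran from 40.7 CPM (nearest Plcl2) to 51.0 CPM (Tgfb1, the cytokine TGF-β1). Starts of genes lay in 4 of the 24 peaks (Pxn, Sema6b, Mef2c and Hhex), introns held 12 and 4 were distal.

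Among 4 gene lists, transcription factors known from blood and vessels had the largest share of genes with a shared peak. Of 44 listed factors, 17 (38.6%) had at least 1 shared peak, with 26 peaks in all, whereas 740 of 21924 protein-coding genes (3.38%) had one. Listed genes are longer (median span 41.7 kb against 17.4 kb), and 72.7% and 50.0% of them also had an Endo-only and an immune-only peak, against 15.2% and 16.0% of all genes. Most open were peaks over the starts of Mef2c (45.9 CPM in Endo and 55.5 CPM in immune), Hhex (73.2 and 43.1 CPM) and Lyl1 (36.5 and 35.8 CPM), a peak nearest Bach1 (37.8 and 27.8 CPM) and the start of Tal1 (41.3 and 21.9 CPM). Hhex, Lyl1 and Tal1 encode factors of early blood and endothelial development. At the start of Tal1 (chr4:115056523-115058009), Endo had 41.7 and 36.9 CPM at P0 and 49.2, 37.4 and 51.2 CPM in the adult samples, and immune 26.2, 22.8, 30.7, 25.1 and 13.7 CPM. P0 and adult ranges overlapped in both types.

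Adhesion and surface molecules followed with 18 of 52 genes (34.6%) and 25 peaks, while 71.2% of these genes also had an Endo-only and 46.2% an immune-only peak (median span 35.8 kb). Besides Pecam1, they included a peak nearest Adgre5, the leukocyte receptor CD97 (43.7 and 30.7 CPM in Endo and immune), one 56260 bp from the start of Cd34, a surface mucin of progenitors and capillaries (25.4 and 46.0 CPM), and one over the 3′-UTR of Kdr, the VEGF receptor (70.1 and 21.9 CPM). Icam1, Vcam1, Selp and Itgb2, which act in leukocyte binding to the vessel wall, each had one as well, that of Vcam1 59867 bp from its start.

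Kinases, phosphatases and adaptors of leukocyte signalling had a shared peak at 13 of 41 genes (31.7%, 25 peaks), where 46.3% had an Endo-only and 78.05% an immune-only peak (median span 65.6 kb). The most open shared peaks lay at Inpp5d, the lipid phosphatase SHIP1 (51.5 and 32.9 CPM), Sh3bp5 (40.1 and 30.0 CPM), Grap (28.9 and 27.0 CPM) and the start of Prex1 (45.6 and 24.8 CPM). Interferon, antigen presentation and cytokine receptor genes had one at 9 of 47 (19.1%, 11 peaks), where 38.3% had an Endo-only and 57.4% an immune-only peak (median span 18.6 kb). Genes with a shared peak included Tgfb1, Irf2, Tgfbr2, Nfkb1 and Psmb9. The lists were drawn up for blood and vessel biology, so their shares describe the peaks and were given no test.

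Most genes with a shared peak had only 1. A single shared peak was found at 603 genes, 2 or 3 at 131, and 4 or more at 6: Prex1 with 6, Entpd1 and S1pr1 with 5, and Inpp5d, Zmiz1 and Vav3 with 4. Entpd1 encodes CD39, which breaks down extracellular ATP on endothelium and leukocytes. All 5 Entpd1 peaks lay inside the gene over 49.4 kb, with 17.5 to 51.4 CPM in Endo and 22.7 to 32.9 CPM in immune nuclei. One of them (chr19:40630151-40631115) had 20.9 and 32.9 CPM against 0.73 CPM in stroma1, the highest other cluster. Inpp5d had its 4 peaks within 31.3 kb from the start into the gene, with 20.95 to 51.5 CPM in Endo and 24.1 to 43.8 CPM in immune nuclei. Each led in all 5 samples in both types. None of the 5 peaks assigned to S1pr1, the receptor that guides lymphocyte exit and vessel maturation, overlapped the gene, and they lay 21147 to 47981 bp from its start. Prex1 and Vav3 encode exchange factors for Rac.

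The remaining peaks leaned to either type. In 114 the Endo level was over 2 times the immune level, in 114 the reverse, and the same 114 and 114 would also pass the rule for Endo-only or immune-only peaks. Slc38a9, the lysosomal arginine sensor, was nearest the peak with the largest ratio (76.2 CPM in Endo, 8.77 CPM in immune nuclei, ratio 8.70). Its immune level came from 12 open calls and led the other clusters in only 1 sample. Next were Ctla2a (49.9 and 9.50 CPM), Gimap6 (81.7 and 16.1 CPM), Jam3 (62.4 and 12.4 CPM), Cdh23 (50.6 and 10.2 CPM) and Ets1 (45.8 and 9.50 CPM, 209902 bp from its start). At the immune end stood the Mob3a intron (12.1 CPM in Endo and 87.7 CPM in immune), followed by Trib1 (10.98 and 70.1 CPM), Egr3 (9.32 and 59.2 CPM), Bin1 (8.12 and 44.6 CPM), Vav1 (8.12 and 43.8 CPM) and Abi3 (9.97 and 53.3 CPM). Mob3a in immune nuclei had 86.5, 63.7, 107.5, 120.3 and 79.9 CPM over the 5 samples in order of age. In Endo it had 12.4, 10.8, 7.93, 15.8 and 10.2 CPM, so that every immune value lay above every Endo value. The peak was picked by its pooled ratio in these same samples, so this separation is a description.

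Motif shares at these ends, which the rule did not use, are given without a test for motifs picked after their values were seen. ETS matches stood in 78.1% of the 114 peaks leaning to Endo, 82.8% of the 683 balanced and 88.5% of the 114 leaning to immune nuclei. GGAAGT stood in 43.9%, 49.2% and 65.5%, CGGAAG in 9.65%, 14.5% and 18.6%, and AGGAAG in 71.9%, 75.8% and 76.1%. The RUNX motif was found in 20.2%, 21.9% and 31.0%. The TEAD motif went the other way, at 17.5%, 13.2% and 5.3%, and the SOX motif moved little, at 14.9%, 15.1% and 11.5%.

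Values near the thresholds ran on without a gap. Just inside the minimum, Stat4, Man1a and Klf6 peaks all had 8.03 CPM in Endo (87 calls), and just outside, peaks nearest or at Dusp6, Cdkn2aipnl and Chmp6 had 7.94 CPM (86 calls). The ratio to the highest other cluster was 2.001 for Zfand5 and Smim15 and 2.008 for Ap1m1 inside, and 1.999 for Gpa33 and 1700025G04Rik and 1.996 for Itga9 outside.

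The comparison of stages asked how the shared peaks changed between birth and adulthood within each cell type. The rule pooled the stages, 64.9% of the Endo and 43.9% of the immune calls being from P0, and the test uses the same open calls, so a peak could become a member through the stage in which it is open. The counts over the 911 are therefore a description. In Endo, all 911 peaks could be tested, and 320 passed the test: 196 were more open in adult and 124 more open at P0 (edgeR quasi-likelihood test, Benjamini-Hochberg adjusted p at 0.05 over 92627 peaks). That is 35.1% of the 911, with 21.5% higher in adult and 13.6% higher at P0. The background over all tested peaks was 23.9% called, 11.1% higher in adult and 12.8% higher at P0, and among peaks with at least 50 open calls, closer in depth to the 911, it was 29.2%, where 309 of the 911 were called. A level of 8 CPM was reached in both stages of Endo by 709 of the 911, of which 203 were called (28.6%), 163 higher in adult and 40 higher at P0. It was reached at P0 alone by 150, of which 84 were called, all higher at P0, and in adults alone by 52, of which 33 were called, all higher in adult. The median log2 change was 0.18 for the 911 and −0.15 for all tested peaks, so changes are to be read beside the latter. Both medians moved with the setting. They were 0.05 and −0.25 with DESeq2, and −0.15 and −0.47 without a filter on low counts. With at least 50 open calls they were 0.11 and −0.02, and with thinned nuclei 0.07 and 0.004. Endo nuclei were deeper at P0 than in adults (medians of 7195.5 and 6508.5 open peaks per nucleus against 2099, 2441.5 and 2306). Marker levels of Endo moved with stage as well. Endothelial markers summed to 1964 and 1895 CPM at P0 and 2818, 3100 and 3195 CPM in adults, whereas B cell markers went from 30.5 and 37.3 CPM to 14.3, 10.5 and 16.5 CPM, erythroid markers from 56.2 and 47.7 CPM to 34.9, 23.7 and 29.1 CPM, and platelet markers from 77.8 and 74.1 CPM to 42.8, 52.1 and 52.7 CPM. Stroma markers went from 70.8 and 76.3 CPM to 55.5, 47.3 and 48.0 CPM, and podocyte markers from 183 and 173 CPM to 219, 220 and 231 CPM. Over all 5 samples, B cell markers had 26.1 CPM in Endo, below the 33.1 to 105 CPM of the other 11 named clusters. Erythroid markers had 43.9 CPM, also below the 48.4 to 94.6 CPM there, and platelet markers 67.4 CPM, within 50.1 to 89.6 CPM. The part of these markers in the change with age was not tested. With nuclei thinned to 1000 open peaks, 892 of the 911 were tested and 66 called (7.40%, beside 5.48% of all tested peaks), 34 higher in adult and 32 higher at P0. The split between directions also moved, to 50 higher in adult and 129 higher at P0 without that filter (19.6% called, beside 5.66% of all tested peaks). The calls fell to 96 without P0 replicate 1 (10.5%, beside 6.74%) and to 102 without P0 replicate 2 (11.2%, beside 8.76%).

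Of the 16 peaks with the largest called changes in Endo (8 in each direction), 15 reached 8 CPM there in a single stage, and their values are given as a description. The largest gain with age was at the peak 4333 bp from the start of Ly6e, which encodes a lipid-anchored surface protein. Endo had 4.22 and 1.81 CPM there at P0 and 20.6, 19.5 and 29.9 CPM in the adult samples. The groups did not overlap, and the log2 change was 3.01 (SE 0.38). Immune nuclei had 15.7 and 18.2 CPM at P0 and 15.4, 10.03 and 13.7 CPM in adults, from 2 to 6 calls a sample, all adult values being lower (log2 change −0.25, SE 0.77). Next came a peak over the start of Phf11d, with 5.39 and 3.62 CPM at P0 and 19.0, 25.3 and 22.8 CPM in adult Endo (log2 change 2.47). Pik3ip1, an inhibitor of PI3-kinase, followed with 8.91 and 4.70 CPM at P0 against 25.4, 35.8 and 27.5 CPM (2.27). Peaks at or near Susd6, Irf2bpl, Lifr, Lrch1 and Dnajb12 rose by 1.93 to 2.21 on the log2 scale, and of these Lrch1 reached 8 CPM in both stages. Lifr, the receptor of leukaemia inhibitory factor, had 6.56 and 3.62 CPM at P0 and 15.9, 21.6 and 21.3 CPM in adult Endo.

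The largest loss was at the start of Adgb, which encodes androglobin. Endo had 12.9 and 13.02 CPM at P0 and no open call in any of the 3 adult samples, at least 16.4-fold lower against a floor of 3 calls over the adult group. Immune nuclei had 6, 0, 1, 2 and 2 calls there over the 5 samples. In the Efl1 intron, Endo had 21.8 and 11.9 CPM at P0 and 1.59, 0 and 1.57 CPM in adults (log2 change −4.19, SE 0.59). Efl1 encodes a GTPase of ribosome maturation. The Stat4 intron had 10.3 and 14.5 CPM at P0 and 0, 1.05 and 0.79 CPM in adults (−3.69). Peaks at or near Efcc1, Man1a, Ppp1r9a, Rassf2 and Kcnip3 fell by 2.47 to 4.27 on the log2 scale. The peak nearest Efcc1 had 12 immune calls in P0 replicate 1 and none in the other samples, so that its membership rests on 1 library. For Rassf2, a tumour suppressor of the RAS association family, Endo fell from 14.3 and 13.4 CPM to 0, 3.16 and 1.57 CPM, while immune nuclei had 41.95 and 18.2 CPM at P0 and 38.4, 20.1 and 18.3 CPM in adults, which overlap.

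**Figure D5:**
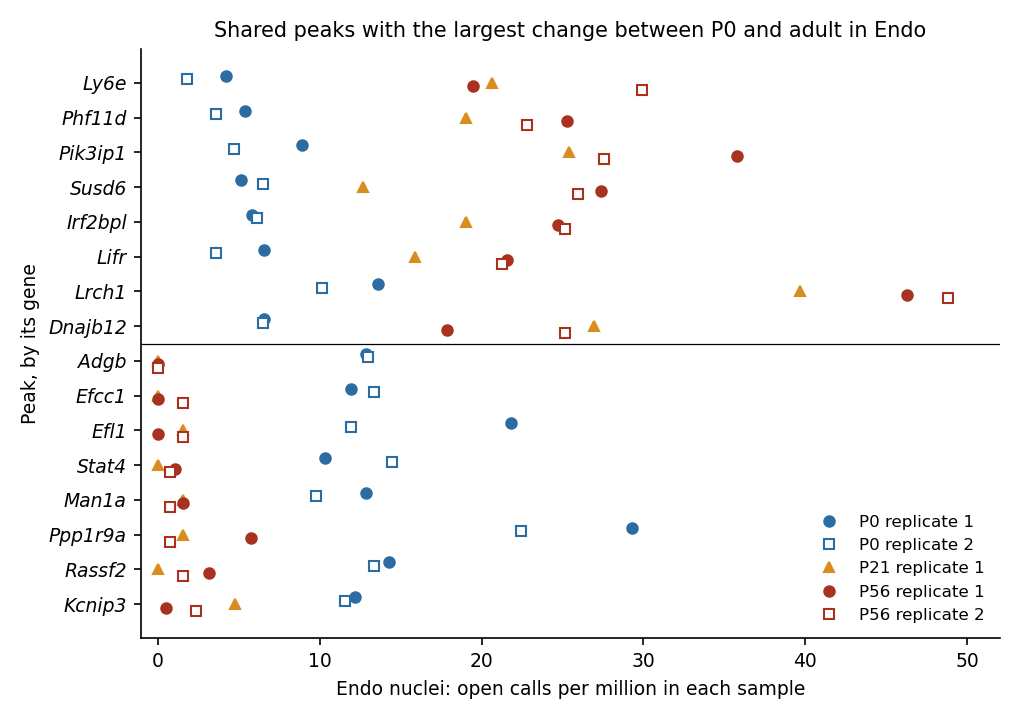
Points give the Endo CPM of each sample for the 8 peaks with the largest gain (top) and the 8 with the largest loss (bottom) between P0 and adult. In all 16 the P0 and adult samples do not overlap, and the Adgb peak has no open call in adult Endo.

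Among the 24 most open peaks 12 were called in Endo, all higher in adult, where 35.1% of the 911 and 23.9% of all tested peaks were called. Ncoa3 had 49.7 and 55.0 CPM at P0 and 101.5, 98.9 and 131.4 CPM in adult Endo (log2 change 1.26, SE 0.21, edgeR adjusted p = 2.4e-07). The Pecam1 intron had 53.7 and 59.3 CPM at P0 and 96.8, 89.4 and 118.0 CPM in adults (1.02), while immune nuclei had 60.3, 72.8, 38.4, 60.2 and 32.0 CPM. By list, to be read beside the same shares and as a description for the reason given above, 3 of 26 peaks at the transcription factors changed in Endo (2 higher in adult and 1, in a Spi1 intron, higher at P0). Of 25 adhesion peaks 8 changed, 7 of them higher in adult. These were at or near Ly6e, Vcam1 (log2 change 1.92), Cd34 (1.91), Jam3 (1.05), Pecam1, Kdr (0.86) and S1pr1 (0.80), and a peak nearest Adgre5 fell by 1.33. Among 25 peaks of leukocyte signalling 12 changed, 7 higher in adult (for example Tbxas1, 1.09) and 5 higher at P0 (for example Prex1, −1.89, and Pik3cg, −1.31). Of 11 interferon and cytokine peaks 5 changed, 3 higher in adult and 2 higher at P0. The medians of these 4 lists ran from 0.20 to 0.41, beside 0.18 for the 911 and −0.15 for all tested peaks. Calls and medians varied by setting. Without a filter on low counts, the medians ran from −0.12 to 0.10. Leukocyte signalling then had 1 higher in adult and 5 at P0, beside 19.6% of the 911 and 5.66% of all peaks called. DESeq2 called no transcription factor or interferon peak and 6 adhesion peaks, all higher in adult, beside 13.4% of the 911 and 4.90% of all. With its size factors in edgeR, 1 interferon peak was higher in adult and 3 at P0, beside 33.0% and 23.9%.

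Motif shares by direction of change in Endo were given no test, and SOX and AP-1 were picked after their values were seen. ETS matches were found in 86.5% of the 196 peaks higher in adult, 83.9% of the 124 higher at P0 and 81.6% of the 591 not called. The SOX motif stood in 22.6% of those higher at P0, against 13.5% and 13.4% of the other groups. AP-1 showed the reverse, with 6.5% of those higher at P0 against 14.0% and 16.2%.

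In immune nuclei 745 of the 911 peaks had enough open calls to be tested, and 1 was called, the peak nearest Anapc16, beside 0.101% of 20743 tested peaks. It had 23.6 and 45.5 CPM at P0 and 69.1, 105.3 and 89.1 CPM in the adult samples, which did not overlap (log2 change 1.62, SE 0.33, edgeR adjusted p = 0.026). Endo moved the same way there, with 54.1 and 55.0 CPM at P0 and 73.0, 100.5 and 96.0 CPM in adults (0.92, edgeR adjusted p = 0.00029). The immune call was lost without either P0 sample and without P56 replicate 2, and without P56 replicate 1, 34 of 632 were called (5.38%, beside 2.48% of all tested peaks), 32 of them lower in adult. At an unadjusted p under 0.05, 132 of the 745 differed (17.7%, beside 12.1% of all tested peaks), 113 of them lower in adult (beside 5.68% of all tested peaks). This too is a description, since 206 of the 911 reached 8 CPM in immune nuclei at P0 alone and 46 in adults alone. Of 636 tested peaks that did so in both stages, 58 were lower and 13 higher in adult at that p, with a median log2 change of −0.33. Over the 745 the median log2 change was −0.42, against −0.01 for all tested peaks, and it ran from −0.64 without P56 replicate 1 to −0.18 without P56 replicate 2 with 1 sample left out, and was −0.085 with thinned nuclei, where 129 of the peaks were tested. Markers moved with stage in immune nuclei too, erythroid markers from 118 and 100.1 CPM at P0 to 23.04, 45.1 and 47.97 CPM in adults (3 to 45 calls a sample) and T cell markers from 65.5 and 91.04 CPM to 176.6, 150.4 and 123.3 CPM. Proximal tubule markers went from 123 and 141 CPM to 154, 201 and 347 CPM, and the part of these markers was not tested.

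Whether the change with age differed between the cell types was tested as an interaction of stage and type with the sample as a block. It was called at 17 of 745 peaks (2.28%, beside 0.828% of 17502 tested). The change was more negative in immune nuclei at 14 (1.88%, beside 0.417% of the 17502) and more positive at 3 (0.403%, beside 0.411%). Of 531 tested peaks that reached 8 CPM in both stages of both types, 7 were called (1.32%), 6 with a more negative change and 1 with a more positive one. These were at or near Itpkb, Klf7, Pecam1, St3gal5 and Zfp710, besides the Creb1 and Def6 peaks described here. Mtss1 and Cdh5 fell below 8 CPM in adult immune nuclei, and Cdh5 in Endo at P0 as well, so their values are a description. The Mtss1 peak had 11.02 and 11.2 CPM at P0 and 22.2, 31.0 and 27.5 CPM in adult Endo, and 34.1, 13.7, 0, 0 and 4.57 CPM in immune nuclei in the same order. Mtss1 encodes an actin-binding membrane protein. The peak nearest Creb1, a transcription factor of the cyclic AMP pathway, lay 157378 bp from the start of that gene. Endo went there from 27.2 and 30.4 CPM to 55.5, 68.4 and 59.0 CPM and immune from 47.2 and 50.1 CPM to 7.68, 20.1 and 13.7 CPM. Neither type's P0 and adult values overlapped. A peak over the start of Cdh5, which encodes VE-cadherin of endothelial junctions, had 7.50 and 6.15 CPM at P0 and 4.76, 14.2 and 8.66 CPM in adult Endo, which overlap, and 39.3, 50.1, 0, 10.0 and 6.85 CPM in immune nuclei. In the other direction, the Def6 intron had 13.6 and 20.3 CPM at P0 and 11.1, 8.94 and 5.51 CPM in adult Endo, and 10.5, 18.2, 46.1, 55.1 and 20.6 CPM in immune nuclei. The immune values rest on 18, 11, 1, 4 and 6 calls at Creb1 and on 4, 4, 6, 11 and 9 at Def6. Calls of the interaction fell to 6 without P56 replicate 2 (0.969%, beside 0.438% of all tested peaks), and DESeq2 called none. At an unadjusted p under 0.05, edgeR had 189 of the 745 (25.4%, beside 12.4% of all tested peaks). The median difference of the tested shared peaks, immune minus Endo, was −0.30 on the log2 scale. Without P0 replicate 1 or 2, which leaves a single P0 sample, it was −0.21 or −0.26.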

How the data were processed

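The data are snATAC-seq of nuclei from whole kidneys (5 samples). The authors aligned reads to mm10 (GRCm38) with Cell Ranger ATAC 1.1.0, kept barcodes by fragments, mitochondrial share and promoter ratio, clustered them with SnapATAC and Harmony, and called peaks with MACS2 on the pooled nuclei of each cell type, merging overlaps. The deposited counts are binarized, 1 for a nucleus with a fragment in a peak, and hold 166031996 open calls of 28316 nuclei; 89197 entries stored as 0 were read as closed. Calls were summed per sample and cluster, so each sum is a number of nuclei. The deposited annotation gives 13 named clusters and 2 others. Doublets were not searched for, and neither the embeddings nor the scRNA-seq files were used.

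Stages were compared with edgeR 4.0.16 in R 4.3.3 (TMM, quasi-likelihood test, total of at least 15, Benjamini-Hochberg), tested on simulated data. Standard errors are the absolute log2 change over the square root of F. Sums of Endo ranged from 630232 to 4266921 calls per sample and of immune from 130235 to 437788, which limits immune values to steps of 2.28 to 7.68 CPM. Genes came from GENCODE M21 and sequence from GRCm38. Alternatives were DESeq2 1.42.0, other filters and scalings, thinning, samples left out and other thresholds. Other steps used Python 3.11.15, numpy 2.4.6, pandas 2.3.3 and matplotlib 3.10.9.

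The peaks and lists were chosen with earlier results of these data known. Named were the 24 most open peaks, up to 5 per list, up to 8 called per direction and stage test, genes with 4 or more peaks, 3 peaks on each side of a threshold and 6 at each end of the Endo to immune ratio. A further gene list is not reported here. Zfp710 and other called peaks of the lists were chosen after their values were seen.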

Additional observations from a re-analysis of the deposited data

Results flagged for a closer look

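The change between P0 and adult differed between Endo and immune nuclei at 17 of 745 peaks (2.28%, beside 0.828% of all tested peaks). The test was the edgeR interaction test with Benjamini-Hochberg adjustment. The 11 with the largest differences, up to 8 in each direction, follow. Others called were at or near Itpkb, Klf7, Pecam1, St3gal5 and Zfp710. The difference, as the log2 change in immune nuclei minus that in Endo, was 3.74 at the peak nearest Zfp831, 2.65 at Def6 (adjusted p = 0.030) and 2.53 at Clec1b, the receptor CLEC-2. It was −4.38 at Mtss1, −4.31 at the peak nearest Nampt, −3.27 at Exoc3l2, −3.20 at Iqgap3, −2.98 at Cdh5, −2.85 at Tmem63a, −2.64 at the peak nearest Creb1 (adjusted p = 0.00086) and −2.58 at the peak nearest Arhgap12. Of these 11, 8 were no longer called without the block of samples, 10 without a filter on low counts and all 11 with DESeq2. Def6 had an edgeR adjusted p of 0.14 without the block. Def6 and Creb1 reached the minimum of 8 CPM in both stages of both types. The other 9 fell below it in at least 1 stage of a type and could become members through the other stage, so their differences are a description. Endo changed by itself at several of them, for example by −2.02 at Zfp831, 1.496 at Mtss1, 1.29 at Exoc3l2 and 1.28 at Creb1, whereas none passed the test in immune nuclei alone. In immune nuclei, the adult samples held 0, 1 and 0 open calls at Nampt, 0, 2 and 1 at Iqgap3 and 1, 1 and 1 at Exoc3l2. The immune nuclei of P56 replicate 2 also had the lowest immune marker level of the 5 samples, 984 CPM, and its part in the differences was not tested. Without it, all 9 differences that could still be tested kept their sign and 3 passed the test, for example −2.85 at Tmem63a and −3.27 at Cdh5 (neither called) and −2.72 at Creb1 (called). Without P0 replicate 1, the 5 that could be tested also kept their sign, with edgeR adjusted p-values above the threshold.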

How the results depend on the processing

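The rule kept 1519 peaks at a minimum of 5 CPM and 525 at 12 CPM, 587 at a ratio of 3, 381 with the share of nuclei in place of CPM and 528 from the adult samples alone, 392 of which were among the 911 (43.0% of them, where the 1200 peaks from the P0 samples alone held 746 or 81.9%), and 781 to 1052 with a sample left out. The other settings gave 808 to 1233 peaks, among them 970 with thinned nuclei, of which 668 were among the 911 (73.3% of them), and 838 and 1033 under the 2 choices of immune nuclei made after seeing the data. Of the 911, distal and intronic peaks made up 75.9% with promoters of 2 kb and 62.0% with promoters ranked first, against 72.1%, and 96.0% held an ETS motif over the whole peak, where 59.8% of all peaks did. Moving the window by 100 bp to lower or higher coordinates gave 85.4% and 69.4%. Over the samples left out, both types led at 57.8% to 94.0% of the chosen peaks. In Endo, where the report has 320, DESeq2 called 122 of the 911 (13.4%, beside 4.90% of all tested peaks). No filter gave 179 (19.6%, beside 5.66%) and thinned nuclei 66 (7.40%, beside 5.48%). Leaving out an adult sample gave 283 (31.1%, beside 19.0%) to 343 (37.7%, beside 22.6%). Without P0 replicate 1 or 2, which leaves a single P0 sample, the median log2 change of the 911 was 0.12 or 0.10. In immune nuclei DESeq2, no filter and thinned nuclei called 0 (beside 0%, 0.00119% and 0% of all tested peaks). At an unadjusted p under 0.05, DESeq2 had 48 of 745 (beside 676 of 20743 tested) and edgeR 132 (17.7%, beside 12.1%). Leaving out an adult sample gave 0 to 34 (5.38%, beside 2.48%). For the interaction, DESeq2 and thinned nuclei called 0 (89 at an unadjusted p under 0.05 in DESeq2), its size factors in edgeR 26, filterByExpr with a minimum count of 10 gave 11, no filter 1 and a total of at least 50 gave 1, and leaving out a sample 0 to 25. The cause of these moves was not tested, apart from the fewer peaks that thinning leaves to test (129 in immune nuclei). None of the 28 peaks of the stage tests that were recomputed reversed. The 16 peaks named in Endo kept their direction in every alternative that could test them. With both P0 samples kept, they also stayed past the threshold, except 2 with thinned nuclei. They were picked as the largest calls in these same samples, and 15 reached 8 CPM in a single stage, so this is a description.

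Deviations of same-numbered P0 and P56 samples had a correlation over peaks of 0.077 in Endo and 0.039 in immune nuclei. Low counts per peak can also weaken such a correlation, so it does not settle whether these samples share a preparation. The labels do not say so either. With the replicate block, 273 of the 911 were called in Endo (30.0%, beside 19.5% of all tested peaks). In immune nuclei 3 of 745 were called with it (0.403%, beside 0.174%). The interaction without the replicate block of samples called 3 (0.403%, beside 0.137% of all tested peaks) in place of 17.

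Depth limits the immune values: a peak at the minimum of 8 CPM rests on 11 immune calls, and 166 of the 911 had too few to be tested.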
